A study of Mus musculus with 2 samples.

Results

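Oligodendrocytes are the glial cells that wrap axons of the central nervous system in myelin, and 34 genes of myelin and of the cells that make it were followed here in mouse ventral midbrain. They were chosen by symbol from the 31252 gene rows of the deposited table, and all 34 were found there with whole-number counts in both libraries. Of these genes, 25 mark mature oligodendrocytes or belong to myelin, 6 mark progenitors and precursors, and 3 encode transcription factors present throughout the lineage.

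The RNA came from mice of an incipient congenic C57BL/6 strain, 2 months of age, and filled 1 library labelled Control (77) and 1 labelled OE (78). Control mice carry Slc6a3-Cre, and OE mice carry Slc6a3-Cre together with the CAG-S-COUP-TFII allele, from which Cre switches on the nuclear receptor COUP-TFII. Slc6a3 is the dopamine transporter gene, so Cre is driven in dopaminergic (DA) neurons, and oligodendrocytes are not the cells in which the allele is meant to act. The methods describe Ctrl and OE littermates from Tfam fl/fl; ROSA26 tdTomato/tdTomato mothers, a cross that would give both genotypes a floxed Tfam allele and a tdTomato reporter, which the labels do not name. How many mice went into a library is not given in the sources used here. With 1 library per group, no difference has a replicate check and no test across mice was possible. Where a 95% interval is given, it is an exact Clopper-Pearson interval on the split of 2 counts, which covers counting error only and compares the 2 libraries, not the genotypes.

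The total count was 16984336 in the library labelled Control and 21326632 in the library labelled OE. Nr2f2, the gene for COUP-TFII, had 637 and 377 counts, a log2 ratio (labelled OE over labelled Control, as for all ratios here) of -1.07 (interval -1.26 to -0.88). In this tissue the overexpressed gene thus went against the labels, so the groups are called the library labelled Control and the library labelled OE throughout. The study measured the overexpression in isolated DA neurons, whereas these counts come from whole ventral midbrain, where other cells can add Nr2f2 RNA. The reason for the lower count was not tested. Markers of DA neurons were higher in the library labelled OE for 14 of 14 genes (median log2 ratio 1.26), and markers of the thalamus were lower for 12 of 12 genes (median -2.11), with Gbx2 at 0 counts in the library labelled OE. Summed DA markers held 0.148% and 0.340% of the counts, and summed thalamus markers 0.107% and 0.0608%. The part of these differences in the results that follow was not tested. The submitters give the cell type as dopaminergic neurons, but the 34 oligodendrocyte genes held 2.02% of all counts in the library labelled Control and 1.71% in the library labelled OE, so the tissue contains glial RNA.

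The lineage starts with progenitors that carry the growth factor receptor PDGFRα and the proteoglycan NG2. These cells divide in the adult brain, pass through a short-lived precursor stage, and become myelinating cells whose membrane is made of a few abundant proteins and of galactose-containing lipids. SOX10, OLIG1 and OLIG2 act throughout the lineage, and MYRF switches on the myelin genes. In bulk tissue, fewer cells of a type and less RNA per cell cannot be told apart.

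Of the 34 genes, 30 had a log2 ratio below 0, against 49% of the 15246 genes that averaged 10 counts or more over both libraries. By more than log2 0.2, the threshold the study used for its gene lists, 22 of the 34 were lower and 1 was higher in the library labelled OE, against 16.6% and 17.9% of all genes. Most members are abundant, 26 of them averaging 1000 counts or more, and abundant genes have less counting error. Of the 4303 genes at or above that level, 6.95% were lower and 7.95% higher by that threshold. Counting intervals lay below 0 for 26 members and above 0 for 2, against 14.4% and 15.8% of all genes. These shares are not matched for abundance. The intervals reached a median of 0.072 to either side for members, against 0.20 for all genes. For genes averaging 1000 counts or more they reached 0.093, and interval shares among those genes were not counted. The mature genes had a median log2 ratio of -0.32, the progenitor and precursor genes one of -0.15, and all genes one of 0.0046.

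**Figure D1:**
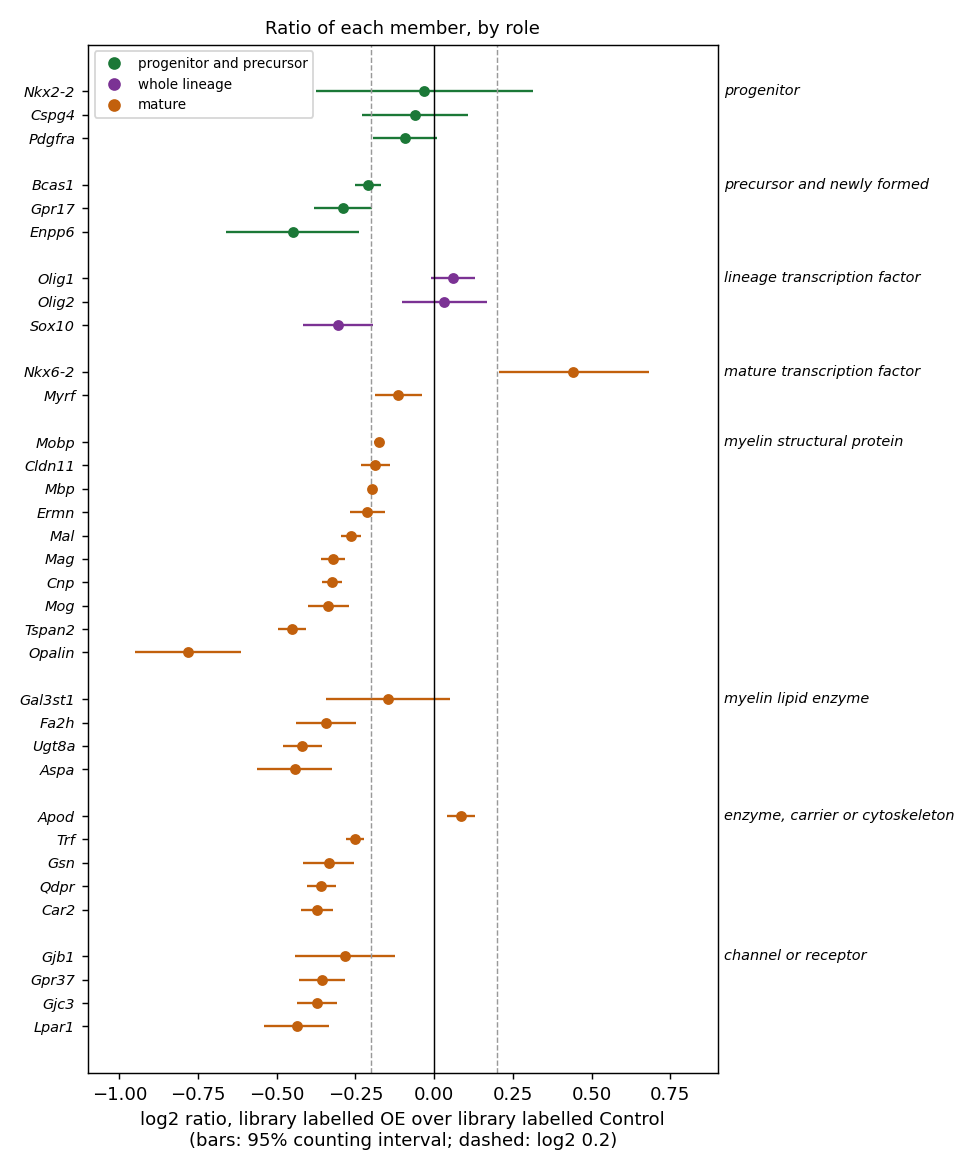
Log2 ratio of each of the 34 genes (x axis, library labelled OE over library labelled Control) with its 95% counting interval, grouped by role on the y axis and coloured by stage, with dashed lines at log2 0.2 on either side of 0. All 10 myelin structural genes lie left of 0, the 3 progenitor genes have intervals that hold 0, and Nkx6-2 lies alone beyond the right dashed line.

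Progenitor genes were close to level between the libraries. Pdgfra, the receptor for platelet-derived growth factor that defines these cells, had 1451 counts in the library labelled Control and 1691 in the library labelled OE. After scaling for depth these were 1617 and 1517 normalized counts, a log2 ratio of -0.092 (interval -0.19 to 0.0098). Cspg4, which encodes NG2, had 534 and 636 counts and a ratio of -0.061 (interval -0.23 to 0.11). NG2 is also made by pericytes, and Pdgfra by fibroblasts of the meninges and vessels. Nkx2-2, a homeobox gene of progenitors and of some ventral neurons, had 130 and 158 counts and a ratio of -0.032 (interval -0.38 to 0.31). For all 3, a difference was not detectable at this depth with TMM scaling, and for Nkx2-2 the interval is wide because counts were few. For Pdgfra this depends on the scaling. Total counts moved member ratios by a median of -0.015, more than the 0.0098 by which its interval passed 0. Nkx2-2 also shares 11.0% of its exon bases with the antisense gene Nkx2-2os.

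The 3 genes of precursors and newly formed oligodendrocytes were all lower in the library labelled OE. Gpr17, a receptor of committed precursors that is switched off as they mature, had 1945 and 1977 counts and a log2 ratio of -0.29 (interval -0.38 to -0.20). Enpp6, a choline phosphodiesterase that marks newly formed cells, had 390 and 355 counts. Its ratio of -0.45 (interval -0.66 to -0.24) was the lowest of the progenitor and precursor genes, and in normalized counts it was 435 and 318. Bcas1, found in early myelinating cells and kept at a lower level in mature ones, had 9564 and 10268 counts and a ratio of -0.21 (interval -0.25 to -0.17). Within a library, the summed counts of these 3 genes were 5.63 times those of Pdgfra, Cspg4 and Nkx2-2 in the library labelled Control and 5.07 times in the library labelled OE. This ratio does not depend on the scaling between libraries, and its log2 difference was -0.15 (95% counting interval -0.24 to -0.059, from a normal approximation on the log scale, as for all ratios within a library below). Pdgfra, Cspg4 and Nkx2-2 were chosen as a denominator after the values were seen. Bcas1, which mature cells also keep, makes up most of the numerator. Over Pdgfra alone, the log2 difference was -0.12 (interval -0.23 to -0.0095) for Bcas1. It was -0.20 (interval -0.33 to -0.062) for Gpr17 and -0.36 (interval -0.59 to -0.13) for Enpp6.

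Among transcription factors the direction was mixed. Sox10, present throughout the lineage, had 1319 and 1327 counts and a log2 ratio of -0.30 (interval -0.42 to -0.19). Olig1 and Olig2, a pair of basic helix-loop-helix genes that lie 41095 bases apart on chromosome 16 (GRCm38), had 2896 and 3752 counts and 795 and 1010 counts in turn. Their ratios of 0.060 (interval -0.0099 to 0.13) and 0.032 (interval -0.10 to 0.17) had intervals that held 0. For Olig1 this depends on the scaling, since the upper quartile moved member ratios by a median of 0.014. Olig1 over Olig2 was 3.64 in the library labelled Control and 3.71 in the library labelled OE, with a log2 difference of 0.028 (interval -0.12 to 0.18). Olig1 over Sox10 was 2.20 and 2.83, a log2 difference of 0.36 (interval 0.23 to 0.50), so these lineage-wide factors did not keep the same ratio in both libraries.

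Myrf, the regulator that opens the myelin programme, had 2720 and 3123 counts and a log2 ratio of -0.11 (interval -0.19 to -0.039). Nkx6-2, a homeobox gene expressed in myelinating oligodendrocytes, had 234 and 395 counts. It was the 1 member higher by more than log2 0.2, with normalized counts of 261 and 354 and a ratio of 0.44 (interval 0.21 to 0.68). Over Myrf, its counts were 0.0860 in the library labelled Control and 0.126 in the library labelled OE, with a log2 difference of 0.56 (interval 0.31 to 0.80).

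All 10 genes of myelin membrane and structure had log2 ratios below 0, with intervals below 0, and 7 of the 10 were lower by more than log2 0.2. Mbp encodes myelin basic protein, which compacts the membrane, and it was the most abundant member. It had 128974 and 139810 counts, 0.759% and 0.656% of the counts. After scaling it was 0.872 times as high in the library labelled OE, a ratio of -0.197 (interval -0.21 to -0.19) on the edge of the threshold. Mobp, another abundant protein of compact myelin, had 62515 and 68796 counts and a ratio of -0.18 (interval -0.19 to -0.16). The small counting intervals of these genes separate the 2 libraries and say nothing of the spread between mice.

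Mog, a surface protein of the outermost layer, had 3913 and 3852 counts and a log2 ratio of -0.34 (interval -0.40 to -0.27). Mag, the adhesion protein that faces the axon, had 10911 and 10847 counts and a ratio of -0.32 (interval -0.36 to -0.28). Cnp, an enzyme of cytoplasm-filled myelin channels, had 15340 and 15229 counts and a ratio of -0.32 (interval -0.36 to -0.29). Relative to Mbp in the same library, the log2 difference was -0.14 (interval -0.20 to -0.074) for Mog and -0.12 (interval -0.16 to -0.085) for Mag, while for Mobp it was 0.022 (interval 0.0027 to 0.041).

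Cldn11, the tight junction protein of myelin, had 7068 and 7713 counts and a log2 ratio of -0.19 (interval -0.23 to -0.14). Mal, a lipid raft protein, had 16541 and 17106 counts and a ratio of -0.26 (interval -0.30 to -0.23). Ermn, which encodes a cytoskeletal protein of mature oligodendrocytes, had 5033 and 5398 counts and a ratio of -0.21 (interval -0.27 to -0.16). Tspan2, a tetraspanin of myelin, had 8549 and 7766 counts and a ratio of -0.45 (interval -0.50 to -0.41). Its unscaled count was lower in the deeper library, as were those of other members such as Mog, Mag and Cnp.

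Opalin, a glycoprotein restricted to oligodendrocytes and their myelin, had the lowest ratio of all 34 genes. It had 699 counts in the library labelled Control and 505 in the library labelled OE, or 779 and 453 normalized counts. The library labelled OE held 0.582 times the level of the other, a log2 ratio of -0.78 (interval -0.95 to -0.62), and Opalin was the 1 member lower by more than log2 0.5, against 5.03% of all genes. Within the library, Opalin over Mog was 0.179 and 0.131, a log2 difference of -0.45 (interval -0.62 to -0.27), so it was lower also relative to another myelin gene.

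**Figure D2:**
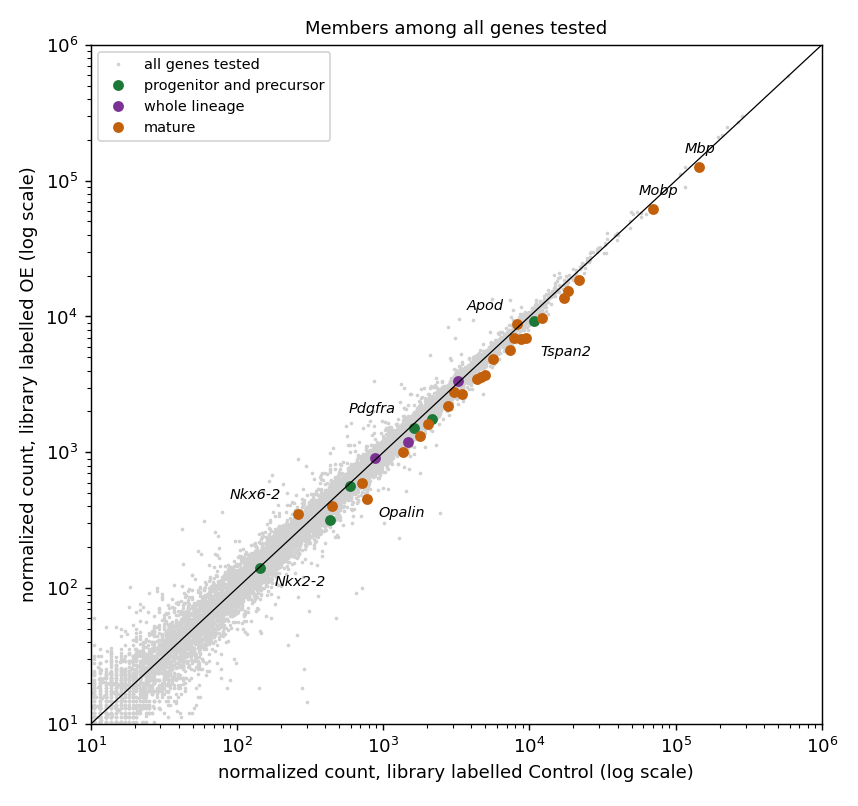
Normalized counts of all genes tested (grey) and of the members (coloured by stage) in the library labelled Control (x axis) and the library labelled OE (y axis), both on log scales with a line of equality. Most mature genes lie below the line, among them Opalin at 779 and 453 and Mbp at 143763 and 125428, while Nkx6-2, Apod, Olig1 and Olig2 lie above it.

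Of the 4 enzymes of myelin lipids, 3 were lower by more than log2 0.2. Ugt8a adds galactose to ceramide, the first step to the main glycolipid of myelin, and had 4435 and 4123 counts and a log2 ratio of -0.42 (interval -0.48 to -0.36). Fa2h, which makes the hydroxylated fatty acids of these lipids, had 1831 and 1792 counts and a ratio of -0.34 (interval -0.44 to -0.25). Aspa releases acetate from N-acetylaspartate for lipid synthesis, and had 1225 and 1119 counts and a ratio of -0.44 (interval -0.56 to -0.33). Gal3st1 adds sulfate to the product of Ugt8a to give sulfatide, and had 400 and 449 counts and a ratio of -0.15 (interval -0.34 to 0.052), an interval that held 0. Ugt8a over Gal3st1 was 11.1 in the library labelled Control and 9.18 in the library labelled OE, with a log2 difference of -0.27 (interval -0.48 to -0.068).

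Both connexin genes were lower in the library labelled OE. Gjc3, for a connexin along the inner myelin membrane, had 4180 and 4010 counts and a log2 ratio of -0.37 (interval -0.44 to -0.31). Gjb1, for a connexin of gap junctions within myelin, had 645 and 659 counts and a ratio of -0.28 (interval -0.44 to -0.12). Between the libraries, Gjb1 over Gjc3 had a log2 difference of 0.091 (interval -0.078 to 0.26), which was not detectable at this depth. Lpar1, a receptor for lysophosphatidic acid, had 1600 and 1468 counts and a ratio of -0.44 (interval -0.54 to -0.33). Gpr37, an orphan receptor of oligodendrocytes that neurons also express, had 3082 and 2992 counts and a ratio of -0.36 (interval -0.43 to -0.28).

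The last 5 genes are abundant in oligodendrocytes but are not restricted to them. Trf, for the iron carrier transferrin, had 19644 and 20506 counts and a log2 ratio of -0.25 (interval -0.28 to -0.22). GENCODE M21 places 76.7% of its exon bases also in Gm20425 on the same strand, so its count depends on how reads were shared. Car2, a carbonic anhydrase, had 6606 and 6344 counts and a ratio of -0.37 (interval -0.42 to -0.32). Qdpr regenerates tetrahydrobiopterin, the cofactor of tyrosine hydroxylase, and had 7808 and 7568 counts and a ratio of -0.36 (interval -0.40 to -0.31). Opposite-strand genes share 21.1% of the exon bases of Qdpr and 14.2% of those of Bcas1. Gsn, an actin-severing protein, had 2489 and 2453 counts and a ratio of -0.33 (interval -0.42 to -0.25). Apod, a lipid-binding lipocalin, went the other way with 7402 and 9755 counts, a ratio of 0.085 (interval 0.041 to 0.13), and Apod over Trf was 0.377 in the library labelled Control and 0.476 in the library labelled OE.

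Taking the 7 mature genes that other brain cells also express out of the 25 left a median log2 ratio of -0.30, with 12 of 18 genes lower by more than log2 0.2. The 25 mature ratios had an SD across genes of 0.22, while their counting intervals reached a median of 0.062 to either side. The spread among the mature genes was thus wider than counting error. Over all 34 members, Spearman's rho of the ratio was -0.017 with transcript length and -0.044 with mean count, across genes that share the same 2 libraries. Over the 13874 genes tested that have a length, rho was -0.18 with length and 0.018 with mean count. The part of transcript length in the member ratios was not tested.

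Expression per length was compared after dividing depth-scaled counts by the longest coding transcript of each gene in GENCODE M21, since the isoforms present are not given in the table. On this scale (CPM per kb) Mbp was highest of the members, at 1575 in the library labelled Control and 1374 in the library labelled OE, ranks 3 and 5 among all genes tested that have a length. Mobp followed at 1114 and 987, then Trf at 447 and 376 and Cnp at 381 and 305. The lowest were Enpp6 at 4.60 and 3.37, Cspg4 at 3.85 and 3.69 and Nkx2-2 at 3.59 and 3.51, and Pdgfra was at 12.4 and 11.7. Neighbours in this order with different transcript choices cannot be ranked: with the median transcript length, Mobp ranked above Mbp in both libraries, at rank 2 against rank 3.

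For the 6 members whose ratios were furthest from 0, all with at least 100 counts in each library, the promoter was looked up in RefSeq (GRCm38.p6, the build that mm10 names, which the submitters' processing notes give). The 250 bases before the RefSeq start site are shown for the 4 whose window holds no annotated exon of the same gene. Exons of other genes were not checked. Of the 4, 3 were lower in the library labelled OE, and Nkx6-2 was the gene that was higher. They are written 5′ to 3′ on the strand of the gene, with capitals on matches, on either strand, to ACAAAG and ACAAT (short SOX motifs), CTGGCAC and CTGGTAC (MYRF), CAGCTG and CATCTG (E-boxes of the kind OLIG proteins bind), and AGGTCA (the core site of nuclear receptors such as COUP-TFII). Opalin, minus strand, chr19:41077114-41077363, Enpp6, plus strand, chr8:46986637-46986886, Aspa, minus strand, chr11:73324638-73324887, and Nkx6-2, minus strand, chr7:139582798-139583047, read as follows.
Opalin: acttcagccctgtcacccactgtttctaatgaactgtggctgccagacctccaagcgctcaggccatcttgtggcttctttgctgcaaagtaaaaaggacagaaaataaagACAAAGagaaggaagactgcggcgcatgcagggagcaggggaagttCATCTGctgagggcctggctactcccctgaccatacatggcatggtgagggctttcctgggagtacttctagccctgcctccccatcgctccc
Enpp6: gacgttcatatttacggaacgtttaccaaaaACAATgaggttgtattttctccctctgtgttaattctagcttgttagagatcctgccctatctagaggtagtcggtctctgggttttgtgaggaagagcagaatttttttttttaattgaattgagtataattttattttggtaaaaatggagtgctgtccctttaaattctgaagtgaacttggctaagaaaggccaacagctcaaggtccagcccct
Aspa: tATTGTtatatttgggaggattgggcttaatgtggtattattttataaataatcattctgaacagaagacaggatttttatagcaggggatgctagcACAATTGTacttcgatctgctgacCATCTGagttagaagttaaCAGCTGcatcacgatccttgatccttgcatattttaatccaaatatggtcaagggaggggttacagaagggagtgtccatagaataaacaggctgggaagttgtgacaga
Nkx6-2: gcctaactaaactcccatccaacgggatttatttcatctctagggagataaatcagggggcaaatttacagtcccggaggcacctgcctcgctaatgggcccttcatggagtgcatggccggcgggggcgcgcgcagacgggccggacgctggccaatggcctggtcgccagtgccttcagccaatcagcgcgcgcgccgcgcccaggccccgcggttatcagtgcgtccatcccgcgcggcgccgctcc

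The Opalin window has ACAAAG starting 139 bases and CATCTG starting 93 bases before the start site. Enpp6 has ACAAT 219 bases before it. Aspa has 3 matches to ACAAT, 2 of which overlap on opposite strands, 1 CATCTG and 1 CAGCTG. The Aspa window lies inside the gene as GENCODE M21 annotates it, at chr11:73304992-73329596. The Nkx6-2 window, rich in G and C, has no match to any of these letters. Such short motifs are common: a SOX motif of either kind was in 38.8% of the 32851 RefSeq promoter windows of the same length, an E-box in 25.5%, a MYRF motif in 5.93% and AGGTCA in 14%. The table holds promoters for 25 of the 34 members. Of these genes, Cnp, Lpar1, Mag and Mog had a MYRF motif and Gjb1 had AGGTCA in at least 1 window. Counted by window, as for all promoters, a SOX motif was in 54.1% of the 37 member windows and an E-box in 35.1%. A MYRF motif was in 13.5% and AGGTCA in 2.7%. The differences from all windows were not tested. A match is a description of the sequence and not evidence of binding.

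Other genes of the lineage, from lists of 44 mature and 18 progenitor genes, were set beside the members. These lists were chosen with earlier results of these data known, so they are not an independent check. Of the 43 mature genes found in the table, 37 had a log2 ratio below 0, 21 were lower and 2 higher by more than log2 0.2, and the median was -0.19. The most abundant were Tubb4a, a tubulin (-0.17, interval -0.20 to -0.14), Plekhb1 (-0.22, interval -0.25 to -0.19) and Tppp, which stabilizes microtubules (-0.23, interval -0.27 to -0.19). Nipal4, with 352 and 292 counts, had the lowest ratio, -0.58 (interval -0.81 to -0.35). Hapln2, a link protein at nodes of Ranvier, went the other way with 942 and 1523 counts and a ratio of 0.38 (interval 0.26 to 0.50). The other gene higher by more than log2 0.2 was Ppp1r14a, with 162 and 253 counts and a ratio of 0.33 (interval 0.040 to 0.62). Anln, below that threshold, had 0.17 (interval 0.098 to 0.25). Hapln2, Ppp1r14a and Anln were picked out after their values were seen.

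The 18 other progenitor genes were spread on both sides of 0, with 6 lower and 2 higher by more than log2 0.2 and a median of -0.043. Cspg5, the most abundant, had a log2 ratio of 0.033 (interval -0.042 to 0.11), Lhfpl3 one of -0.12 (interval -0.22 to -0.022) and the matrix proteoglycan Vcan one of 0.10 (interval -0.040 to 0.25). Bmp4, a signal made by newly committed cells, had 57 and 32 counts and a ratio of -1.13 (interval -1.82 to -0.50). The median of these genes was nearer to that of all genes than the median of the mature genes was, as with the members.

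**Figure D3:**
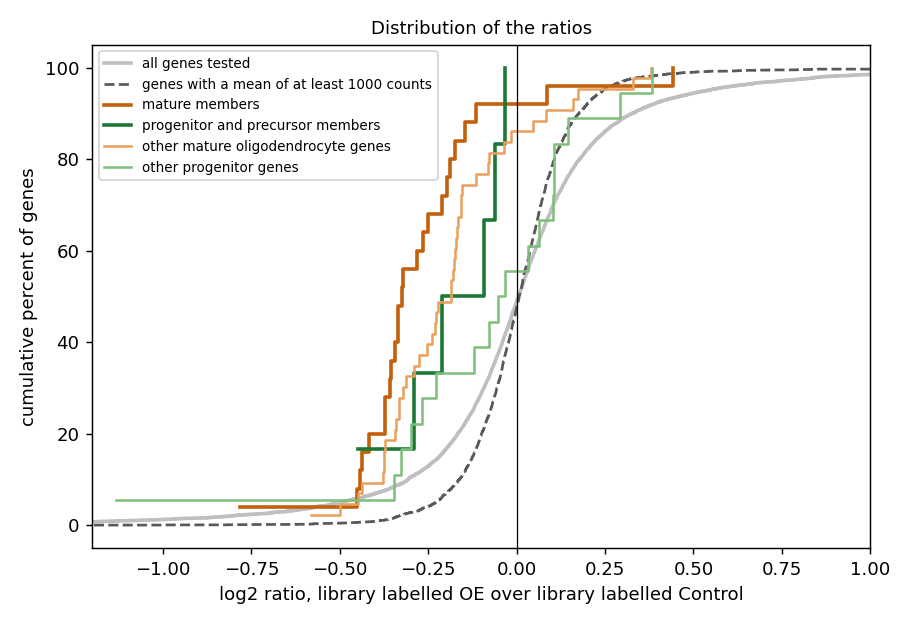
Cumulative percent of genes (y axis) up to each log2 ratio, library labelled OE over library labelled Control (x axis), for all 15246 genes tested, the 4303 that average 1000 counts or more, the mature and the progenitor and precursor members, and the lists of other mature and other progenitor genes. The line of the mature members, with a median of -0.32, lies left of that of the other mature genes (median -0.19), and the other progenitor genes (median -0.043) follow all genes more closely.

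Lipid synthesis that myelin shares with other cells lay nearer to 0. Of 17 genes of cholesterol synthesis, 2 were lower by more than log2 0.2 and 0 higher, with a median log2 ratio of -0.058. Hmgcs1, which makes HMG-CoA, had -0.19 (interval -0.24 to -0.15) and Fdft1, which makes squalene, had 0.089 (interval -0.0012 to 0.18). Among 18 genes of sphingolipids and fatty acids, 2 were lower and 0 higher, with a median of -0.037. Those 2 were Cers2, the synthase for the very long ceramides of myelin, at -0.31 (interval -0.40 to -0.23), and the elongase Elovl7, at -0.38 (interval -0.52 to -0.24), both named after their values were seen. The desaturases Scd2 (-0.15, interval -0.17 to -0.14) and Scd1 (-0.19, interval -0.23 to -0.15) and the fatty acid synthase Fasn (-0.034, interval -0.086 to 0.018) were the most abundant.

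Of 10 genes of the axon at nodes and paranodes, 0 passed log2 0.2 in either direction, and the median log2 ratio was 0.014. Cntn1, the axonal contactin of the paranode, had 0.12 (interval 0.074 to 0.16), Ank3, the scaffold of the node, 0.015 (interval -0.027 to 0.058), and Kcna2, a potassium channel of the juxtaparanode, -0.14 (interval -0.19 to -0.095).

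Other cell types were measured in the same way, since several members are shared with them. Astrocyte markers had 1 of 14 genes lower and 0 higher by more than log2 0.2, with a median of -0.032. The most abundant were Slc1a2 (-0.17), Aldoc (-0.023) and Atp1b2 (0.0093). Microglia markers had 6 of 12 lower (median -0.23), with Csf1r at -0.57, Cx3cr1 at -0.53 and Itgam at -0.50. Markers of endothelial and mural cells had 8 of 12 lower (median -0.26), with Slco1a4 at -0.32, Flt1 at -0.070, Vtn at -0.48 and Acta2 at -0.97. Medians below 0 were thus found for these cells too.

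Fibroblasts of the meninges and vessels share Pdgfra and Lpar1 with the lineage, and their markers had 7 of 8 genes lower (median -0.63). The most abundant were Igf2 (-0.45), Pdgfrb (-0.23) and Dcn (-0.18), and the collagen Col3a1 (-0.98), Slc6a13 (-0.98) and Col1a1 (-0.94) were furthest from 0. Pdgfrb is also on the list of endothelial and mural cells, and is counted as lower in both. The 8 genes summed to 2546 and 1872 normalized counts, against 1617 and 1517 for Pdgfra. Choroid plexus makes transferrin, and 2 of its 5 markers with enough counts were lower and 1 was higher. Ttr, its main secreted protein, had 426 and 67 counts, Kl had 60 and 39 counts, Otx2 had a ratio of -0.16 and Clic6, the higher one, a ratio of 0.22 (interval -0.26 to 0.72), an interval that held 0. All 8 markers summed to 823 and 358 normalized counts, against 21896 and 18397 for Trf.

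Neuronal markers had 6 of 12 genes higher and 1 lower (median 0.19). Snap25 (0.055), Map2 (-0.020) and Syp (0.11) were the most abundant, and the neurofilament genes Nefl (0.54) and Nefh (0.52) passed log2 0.5. Schwann cells make the myelin of peripheral nerve, and their markers were near absent, with Pmp2 at 0 and 2 counts and Prx at 5 and 14 counts. Of the 6, Ncmap (-0.21) and Pou3f1 (0.50) had enough counts for a ratio. The part of these cell types in the ratios of the members was not tested.

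**Figure D4:**
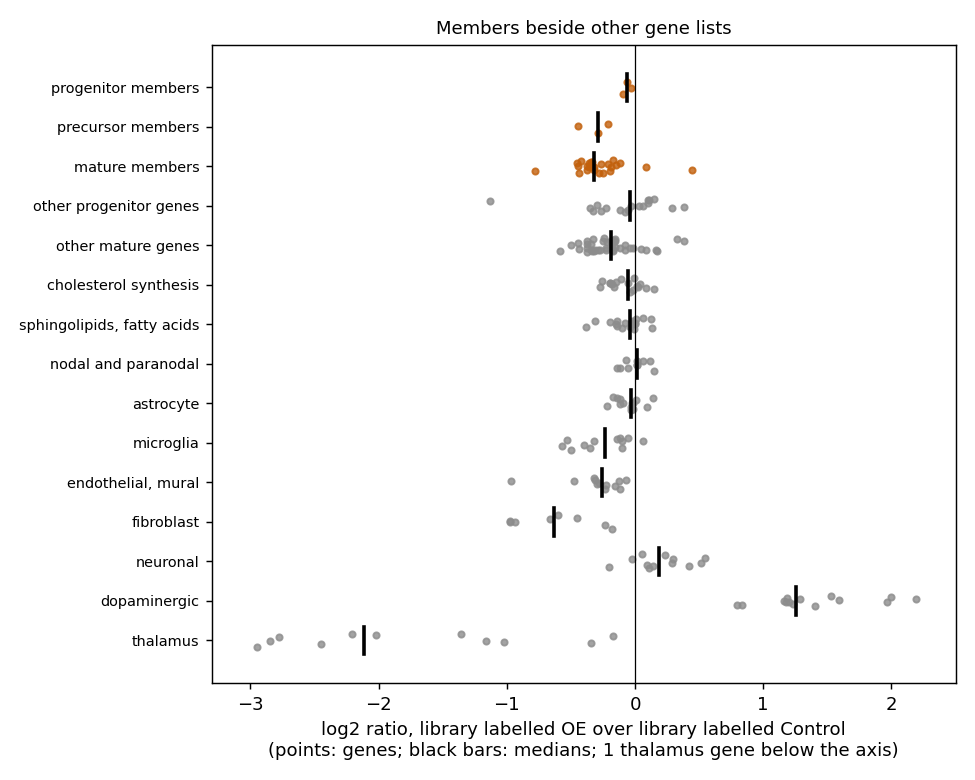
Log2 ratio of each gene (x axis, library labelled OE over library labelled Control) in the members (orange) and in other gene lists (grey), by list on the y axis, with black bars for medians and 1 thalamus gene beyond the left end of the axis. Medians run from -2.11 for the thalamus to 1.26 for DA neurons, with mature members at -0.32 and astrocytes at -0.032.

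Set against each other within a library, the summed mature genes were 23.1 times the summed progenitor and precursor genes in the library labelled Control and 22.8 times in the library labelled OE, with a log2 difference of -0.020 (interval -0.054 to 0.014). Mbp is the most abundant gene of the numerator, and without it the log2 difference was -0.040 (interval -0.075 to -0.0061), an interval that no longer held 0. Bcas1 makes up most of the denominator, and without Bcas1 and Enpp6 the difference was -0.050 (interval -0.11 to 0.012). Over Pdgfra, Cspg4 and Nkx2-2 alone, a choice made after the values were seen, the ratio was 153 and 138, a log2 difference of -0.15 (interval -0.23 to -0.062). For Mbp over Pdgfra it was 88.9 and 82.7, a log2 difference of -0.10 (interval -0.21 to -0.0027).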

How the data were processed

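RNA from the ventral midbrain was measured in 2 libraries, 1 per group, each assigned by the number its column shares with a sample label. The authors deposited expected counts per gene from RSEM, not scaled between libraries, made by a sequencing company from stranded mRNA libraries read from both ends over 50 bases. The submitters' processing notes name mm10. The aligner, the RSEM version, the annotation and the use of strand in counting are not given in the sources used here. RSEM shares reads between similar or overlapping transcripts. Of the values, 95.4% were whole numbers.

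Counts were scaled with TMM (edgeR 4.0.16 in R 4.3.3), and log2 ratios used a pseudocount of 0.5 normalized counts, which understates the change of low genes, over the 15246 genes that averaged 10 counts or more. Counts were rounded for the 95% Clopper-Pearson intervals (scipy 1.17.1, numpy 2.4.6, pandas 2.3.3, Python 3.11.15). No test across mice was run. The methods were tested on simulated data. Alternatives were other scalings (DESeq2 1.42.0 among them), pseudocounts, count minimums, thresholds and member sets. The members and lists were chosen with earlier results of these data known. All members are named in the text. From each other list the 3 most abundant genes and those past log2 0.5 with an interval excluding 0 are named, at most 6 a list, except that the DA and thalamus lists are given by counts and medians. A few genes that this rule names are not reported here. Hapln2, Ppp1r14a, Anln, Cers2, Elovl7, Gbx2 and Pmp2 were added after their values were seen. Transcript lengths and overlaps came from GENCODE M21 (GRCm38), with lengths for 13874 of the 15246 genes, and promoters from RefSeq (GRCm38.p6). Sept4, Msmo1 and Epb41l3 were not found under these symbols. Figures were drawn with matplotlib 3.10.9.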

Additional observations from a re-analysis of the deposited data

How the results depend on the processing

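No paired analysis was possible because a group holds just 1 library. Under total counts, the upper quartile, DESeq2 size factors, TMM without oligodendrocyte genes, a pseudocount of 5 and both other count minimums, medians kept their direction, from -0.34 to -0.31 for mature genes, -0.21 to -0.14 for progenitor and precursor genes, and -0.19 to -0.16 for other oligodendrocyte genes. Leaving out Bcas1 and Enpp6 brought the progenitor and precursor median to -0.077 and their count lower by more than log2 0.2 from 3 of 6 to 1 of 4, and leaving out the 7 shared mature genes brought the mature median to -0.30. The mature count lower by more than log2 0.2 was 20 under total counts and 17 under the upper quartile, against 18. At log2 0.5, 1 mature gene and 0 progenitor and precursor genes were lower, by the stricter threshold itself. The log2 difference of mature over progenitor and precursor sums was -0.020, against -0.040 without Mbp and -0.050 without Bcas1 and Enpp6, and -0.17 as a difference of medians or -0.15 over progenitor genes only, an alternative chosen after seeing the data. Nr2f2 stayed between -1.08 and -1.06. Of 136 member ratios recomputed with the scalings and the pseudocount, 134 stayed inside their main counting interval and none changed sign. The exceptions were Mbp under total counts (-0.21) and the upper quartile (-0.18). Of all genes past log2 0.2, 51.8% were higher after TMM, 47.9% after total counts and 55.4% after the upper quartile. Depth limits what can be seen for the genes with fewest counts, such as Nkx2-2, Nkx6-2, Enpp6 and Gal3st1.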
